A study of Mus musculus with 12 samples.

Results

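The 10 genes described here are Trem2, Apoe, Lpl, Gpnmb, Spp1, Lgals3, Cst7, Axl, Fabp5 and Plin2, which are associated with phagocytes that have taken up lipid and with the disease-associated state of microglia. They were chosen by name, with earlier results of these data known. All 10 were found by symbol and Ensembl identifier among 46078 genes of 1 count table. They were all among the 16527 genes with enough counts to be tested. The libraries came from spinal cord tissue of C57BL6/cJ mice in 4 groups of 3: non-injured cord, spinal cord injury (SCI), SCI with syngeneic mesenchymal stem cells (MSC, multipotent stromal cells, here from a matched donor), and SCI with allogeneic MSC (from an unmatched donor). Apart from the injury and the transplant, the labels name no allele or agent, and the injury method, its level, the time since injury, the age and sex of the mice, the donor strain and any control injection go unstated in the labels. Whether the 3 libraries of a group come from different mice is not said either, and p-values therefore reflect only how these samples vary, which may be technical.

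Phagocytes that clear myelin and dying cells take in large amounts of membrane lipid and cholesterol. TREM2 is a receptor of microglia and macrophages that binds lipids and lipoproteins and signals through the adaptor TYROBP. The genes that accompany it in disease models encode an apolipoprotein (the protein part of lipoprotein particles), a lipase, lipid-binding proteins and lysosomal or secreted proteins. In the injured spinal cord, resident microglia and macrophages from the blood can both take on this state, and bulk tissue RNA does not separate them. In such tissue, more cells of a type and more RNA per cell cannot be told apart.

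The stretches of genome in front of 5 of the 10 genes are shown as examples of genes that rose after injury with a motif match in the window; Axl and Apoe also met this and are left out for length. Each window runs from 250 bases before the RefSeq start of the gene to 30 bases after it (280 bases, RefSeq sequence on GRCm38.p6, 5′ to 3′ on the gene's strand). Capitals mark matches to TGANTCA, a loose form of the AP-1 motif in which N is any base, in Trem2, Gpnmb and Cst7. They also mark GAGGAAG or its reverse CTTCCTC, a form of the PU.1 motif, in Trem2 and Spp1. TATAAA is marked in Spp1 and the E-box CACGTG in Plin2.
Trem2 (chr17:48346151-48346430, plus strand): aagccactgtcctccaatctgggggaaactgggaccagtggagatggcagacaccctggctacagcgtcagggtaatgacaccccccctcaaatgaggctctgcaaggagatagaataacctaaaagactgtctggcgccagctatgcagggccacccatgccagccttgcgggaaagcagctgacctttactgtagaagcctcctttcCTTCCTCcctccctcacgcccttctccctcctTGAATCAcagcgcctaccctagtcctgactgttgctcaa
Gpnmb (chr6:49036268-49036547, plus strand): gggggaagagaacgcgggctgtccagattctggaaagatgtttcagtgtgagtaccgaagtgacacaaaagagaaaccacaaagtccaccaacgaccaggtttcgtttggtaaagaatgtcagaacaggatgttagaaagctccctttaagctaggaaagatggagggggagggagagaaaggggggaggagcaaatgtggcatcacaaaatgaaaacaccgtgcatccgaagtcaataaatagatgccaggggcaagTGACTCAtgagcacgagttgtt
Cst7 (chr2:150570165-150570444, plus strand): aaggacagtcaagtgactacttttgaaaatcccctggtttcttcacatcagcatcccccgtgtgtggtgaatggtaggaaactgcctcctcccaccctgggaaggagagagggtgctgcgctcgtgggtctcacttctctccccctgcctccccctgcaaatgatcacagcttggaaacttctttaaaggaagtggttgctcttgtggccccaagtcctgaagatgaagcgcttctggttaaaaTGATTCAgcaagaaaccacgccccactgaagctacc
Spp1 (chr5:104434861-104435140, plus strand): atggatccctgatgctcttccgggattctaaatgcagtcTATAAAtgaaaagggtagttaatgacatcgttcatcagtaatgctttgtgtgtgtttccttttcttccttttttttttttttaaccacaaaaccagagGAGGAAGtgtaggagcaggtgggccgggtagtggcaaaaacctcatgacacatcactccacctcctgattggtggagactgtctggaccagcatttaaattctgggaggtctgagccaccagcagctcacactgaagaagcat
Plin2 (chr4:86670030-86670309, minus strand): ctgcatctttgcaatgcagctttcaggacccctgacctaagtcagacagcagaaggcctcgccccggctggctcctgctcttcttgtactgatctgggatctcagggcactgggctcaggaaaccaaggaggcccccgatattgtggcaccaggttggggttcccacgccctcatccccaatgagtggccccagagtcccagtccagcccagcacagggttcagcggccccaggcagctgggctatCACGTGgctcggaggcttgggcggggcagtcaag
RefSeq windows were matched for 8 of the 10 genes, with 11 start sites among them, and both strands were searched. TGANTCA, a loose form of the AP-1 motif of the FOS and JUN factors, matched 3 of the 11 windows. It matched 7.46% of 32851 promoter windows of all genes. The middle base was A in Trem2, C in Gpnmb and T in Cst7. The PU.1 letters stood in 3 windows (Trem2, Spp1 and Axl; 12.2% of all windows), TATAAA in 2 (Spp1 and a further start site of Apoe; 13.1%), and CACGTG in 1 (6.79%). The M-box TCATGTG, a form of the site of the MITF and TFE factors, matched none of the 11 windows and 3.6% of all windows. No motif searched contains another. A match is a description of the letters, not a measured site.

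Library totals ran from 8705942 to 26151928 counts, and the mitochondrial share from 4.998% to 10.89%, highest in non-injured library 3. All samples carry the same lane number in their labels. The title numbers of the syngeneic and the allogeneic samples each form a range apart from the other groups, so any shared handling of a transplanted group cannot be told apart from its treatment. The tissue held the markers of spinal cord, with summed neuronal markers of 5710 to 12384 CPM (counts scaled to a common library size) and summed oligodendrocyte markers of 23254 to 79765 CPM. Within the syngeneic group, library 3 stood apart from libraries 1 and 2: its 10 genes summed to 10433 CPM, against 4273 and 3569 CPM. Results that rest on the syngeneic group are therefore given with and without that library.

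Trem2, the lipid receptor itself (ENSMUSG00000023992; chromosome 17, 48346401 to 48354147 on GRCm38, plus strand), stood at 7.615, 6.746 and 10.41 CPM in the 3 non-injured libraries and at 114, 135 and 93.9 CPM after SCI. It stood at 54.5, 40.9 and 124.5 CPM with syngeneic MSC and at 98.0, 175 and 212 CPM with allogeneic MSC. Every injured library lay above every non-injured one. Trem2 rose in SCI by a log2 fold change of 3.79 (standard error, SE, 0.43; edgeR quasi-likelihood adjusted p = 0.000218), or from 8.26 ± 1.91 to 114 ± 20.5 CPM (SD, n = 3). Axl, a receptor tyrosine kinase that recognises dying cells through bridging ligands (ENSMUSG00000002602; chromosome 7, 25757273 to 25788705, minus strand), stood at 69.8, 69.3 and 73.3 CPM without injury and at 220, 256 and 208 CPM in SCI. The Axl values were 156, 112 and 222 CPM with syngeneic and 226, 275 and 237 CPM with allogeneic cells. Axl was already present in non-injured cord, where its libraries were the most alike of the 10 genes (coefficient of variation 3.09%). It rose in SCI by a log2 fold change of 1.69 (SE 0.21, adjusted p = 0.000289 in edgeR).

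Apoe encodes the main apolipoprotein of the nervous system, made by astrocytes and by activated microglia and macrophages (ENSMUSG00000002985; chromosome 7, 19696109 to 19699188, minus strand). It stood at 1095, 1138 and 1474 CPM in non-injured cord, 7394, 8725 and 5940 CPM in SCI, 3314, 2708 and 8120 CPM with syngeneic MSC and 5667, 10281 and 13787 CPM with allogeneic MSC. Apoe alone supplied 66.2% to 79.0% of the summed CPM of the 10 genes (a share of reads, not per length) in each library, and up to 1.41% of all counts of a library. It rose in SCI by a log2 fold change of 2.57 (SE 0.43, edgeR adjusted p = 0.00158), and summed astrocyte markers also stood higher, at 13169 to 14740 CPM against 6417 to 8012 CPM. Of these 8 markers, 6 were called higher and 1 lower (16.6% and 9.26% of all tested genes). Their median log2 fold change was 0.64, and Gfap alone held 6525 CPM in SCI. How much of the Apoe difference came with astrocytes was not tested. Lpl, lipoprotein lipase, which releases fatty acids from lipoprotein particles (ENSMUSG00000015568; chromosome 8, 68880491 to 68907448, plus strand), had 7.89, 4.94 and 16.8 CPM in non-injured cord and 143, 171 and 154 CPM in SCI. With transplants it had 58.4, 48.7 and 141 CPM (syngeneic) and 115, 172 and 206 CPM (allogeneic). Non-injured library 3 was the highest of its group but still below every injured library. Lpl rose in SCI by 3.98 on the log2 scale (SE 0.50, edgeR adjusted p = 0.000315).

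Plin2 coats lipid droplets in cells other than adipocytes (ENSMUSG00000028494; chromosome 4, 86648386 to 86670060, minus strand). Its levels were 15.2, 16.5 and 25.8 CPM without injury, 72.4, 80.2 and 57.1 CPM in SCI, 34.0, 30.6 and 69.96 CPM with syngeneic cells and 54.4, 89.5 and 89.95 CPM with allogeneic cells. All injured libraries were above the non-injured ones, the 2 lowest by a small margin. Plin2 rose in SCI by a log2 fold change of 1.87 (SE 0.33, edgeR adjusted p = 0.00231). Fabp5, a cytosolic fatty acid carrier (ENSMUSG00000027533; chromosome 3, 10012548 to 10016607, plus strand), differed from the others. It stood at 147, 159 and 265 CPM without injury, 246, 229.5 and 209 CPM in SCI, 163, 210.4 and 233 CPM with syngeneic MSC and 184, 269.7 and 303 CPM with allogeneic MSC. The 4 groups overlapped, and non-injured library 3 lay above all SCI libraries. Fabp5 was not called in SCI (log2 fold change 0.26, SE 0.24, 95% interval -0.26 to 0.79, edgeR adjusted p = 0.465).

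Gpnmb, a membrane glycoprotein of the lysosomes of phagocytes (ENSMUSG00000029816; chromosome 6, 49036546 to 49070929, plus strand), changed from near absence. It had 3.94, 1.62 and 6.82 CPM in non-injured cord and 655, 799 and 404 CPM in SCI. With syngeneic cells it had 107, 49.9 and 665 CPM, the widest spread of any of the 10 genes in a group (coefficient of variation 124%), and with allogeneic cells 402, 992 and 1099 CPM. The rise in SCI was 7.21 on the log2 scale (SE 1.03, edgeR adjusted p = 0.000684). Lgals3, galectin-3, a sugar-binding protein recruited to damaged lysosomes (ENSMUSG00000050335; chromosome 14, 47367751 to 47386160, plus strand), had 1.16, 1.62 and 1.64 CPM without injury and 102, 100.2 and 91.5 CPM in SCI. It had 31.8, 33.2 and 95.3 CPM with syngeneic and 57.1, 132.5 and 191 CPM with allogeneic cells. The SCI libraries were the most alike (coefficient of variation 5.82%) and the allogeneic ones spread widely (52.8%). Lgals3 rose in SCI by 6.07 on the log2 scale (SE 0.59, edgeR adjusted p = 0.000118).

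Cst7, cystatin F, an inhibitor of lysosomal cathepsins made by immune cells (ENSMUSG00000068129; chromosome 2, 150570415 to 150578944, plus strand), was the rarest of the 10 in non-injured cord, with 16 counts over 3 libraries (0.348, 0.187 and 0.205 CPM). It reached 39.0, 52.9 and 41.1 CPM in SCI, 21.8, 10.8 and 46.0 CPM with syngeneic and 65.6, 88.0 and 63.9 CPM with allogeneic cells. Each allogeneic library lay above each SCI library. Its rise in SCI was the largest of the 10, at 7.38 on the log2 scale (SE 0.61, edgeR adjusted p = 8.75e-05). Spp1, osteopontin, a secreted glycoprotein that binds integrins and CD44 (ENSMUSG00000029304; chromosome 5, 104435118 to 104441050, plus strand), was abundant without injury, at 186, 182.5 and 354 CPM. It stood at 625.5, 717 and 630.0 CPM in SCI, 332, 325 and 716.5 CPM with syngeneic and 615.5, 966 and 1270 CPM with allogeneic cells. Syngeneic libraries 1 and 2 lay within the non-injured range, and library 3 within the SCI range. Spp1 rose in SCI by 1.45 on the log2 scale (SE 0.36, edgeR adjusted p = 0.0141), and lost that call without non-injured library 1 (1.29, adjusted p = 0.0585) or library 2 (1.28, adjusted p = 0.0531). Motor neurons are also known to make Spp1, and their summed markers stood at 383 to 640 CPM in non-injured cord and at 204 to 302 CPM in SCI; their part was not tested.

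**Figure D1:**
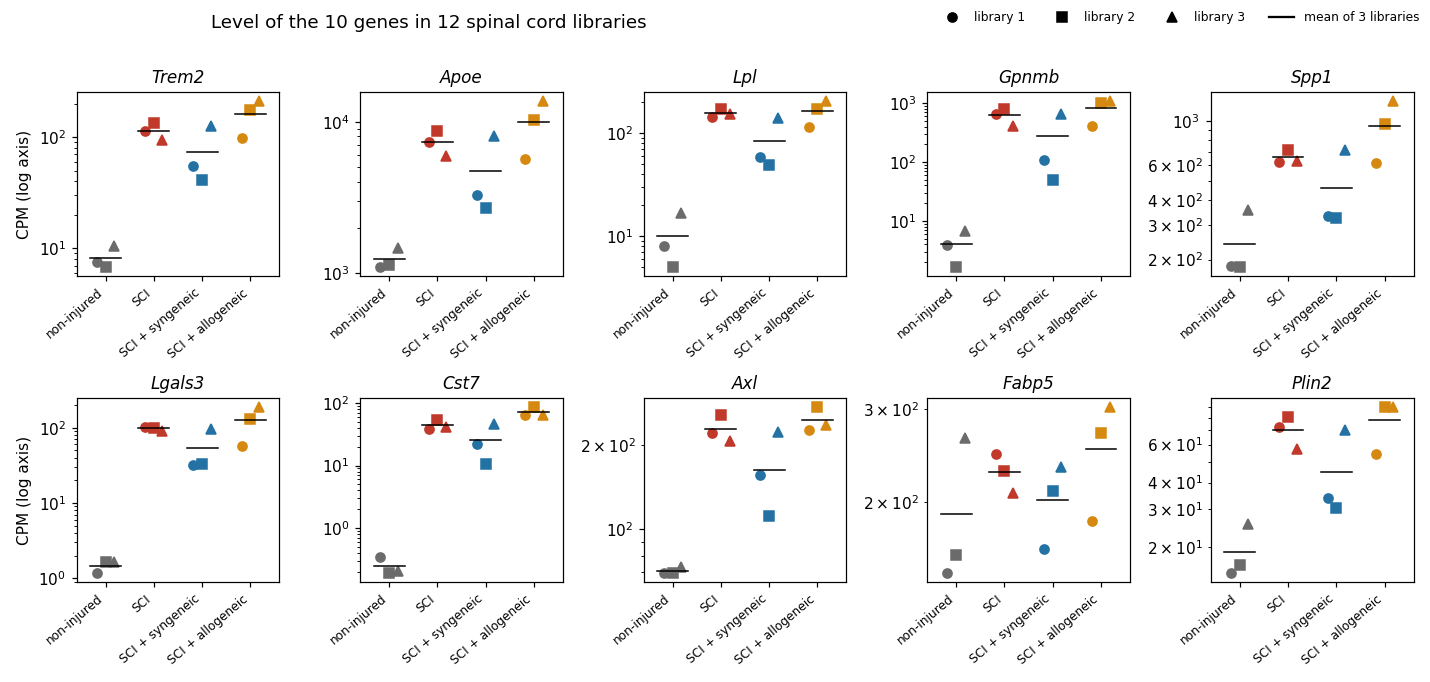
Level of each of the 10 genes (CPM, log axis) in the 12 libraries, by group; symbols are libraries 1 to 3 and the bar is the group mean. In 9 genes every SCI library lies above every non-injured one, and syngeneic library 3 (triangle) lies above syngeneic libraries 1 and 2 in all 10.

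Read per length of exon (RPKM, CPM per kilobase of exon, group means), the order in non-injured cord was Apoe (578), Spp1 (146), Fabp5 (53.3), Axl (14.1), Plin2 (5.45), Trem2 (1.67), Lpl (0.943), Lgals3 (0.794), Gpnmb (0.634) and Cst7 (0.25). In SCI it was Apoe (3439), Spp1 (399), Gpnmb (95.03), Fabp5 (63.95), Lgals3 (52.7), Axl (45.3), Cst7 (45.0), Trem2 (23.1), Plin2 (19.9) and Lpl (14.9). Neighbours whose means lay within 1 SD of each other were Axl and Cst7, and Trem2 and Plin2, in SCI, and Lpl, Lgals3 and Gpnmb in non-injured cord, where the mean of Cst7 also lay within the SD of Gpnmb. Gpnmb moved from place 14026 to place 322 by mean RPKM, and Cst7 from 16408 to 884. These places count all genes of the count table (46078) that have an exon length, not only the tested ones.

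Injury raised 9 of the 10 genes, all except Fabp5, against 16.6% of all tested genes called higher and 9.26% called lower. The median log2 fold change of the 10 genes was 3.18, and that of all tested genes 0.01. The sizes fell into a graded order, from Cst7, Gpnmb and Lgals3 (66.4 to 179.7 times the non-injured level) through Lpl (15.8 times) and Trem2 (13.8 times) to Apoe (5.95 times), Plin2 (3.65 times), Axl (3.22 times) and Spp1 (2.73 times). The genes rarest in non-injured cord thus had the largest ratios. The libraries of the groups did not overlap for the same 9 genes, against 26.3% of tested genes with SCI higher.

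Markers of phagocytes moved in the same direction. Summed markers of microglia (12 genes) stood at 1591 to 1863 CPM in SCI against 354 to 498 CPM in non-injured cord. All 12 were called higher, against 16.6% of all tested genes. Summed markers of monocyte-derived macrophages (10 genes) stood at 228 to 262 CPM against 26.1 to 33.0 CPM, and 9 of the 9 tested were called higher. Itgam (127 CPM), Adgre1 (49.8 CPM) and Fcgr1 (25.1 CPM) held most of that sum in SCI, where Ccr2 had 5.41 CPM. The sum does not separate these macrophages from microglia. Csf1r, the receptor for microglial growth factors, rose by 2.28 on the log2 scale (SE 0.22) and Ms4a7, a macrophage gene, by 6.22 (SE 0.92). Adipocytes, another lipid-storing cell type, had summed markers of 15.8 to 20 CPM without injury and 20.4 to 21.6 CPM in SCI, and Lep was at 0 in every library. Most of that sum was Lipe (means of 16.8 CPM without injury and 16.9 CPM in SCI), whereas Fabp4 went from 0.379 to 3.81 CPM. Osteoclasts, which also express Gpnmb and Spp1, had summed markers of 10.5 to 16.3 and 20.4 to 29.6 CPM. Summed markers of fibroblasts and stromal cells (9 genes) stood at 794 to 833 CPM without injury and 1513 to 2134 CPM in SCI. Of these 9 genes, 8 were called higher and 1 lower. Their median log2 fold change was 2.92, more than the sum shows, and Thy1 alone held 404.5 CPM in SCI. Summed neutrophil markers stood at 29.3 to 38.9 and 82.6 to 105 CPM, and summed Schwann cell markers at 124 to 1650 and 644 to 760 CPM. The part of these cells in the result was not tested.

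Set against the mean log2 CPM of the 12 microglial markers in the same library, the 10 genes fell apart. Axl stayed level, with a mean difference from the marker mean of 1.65 in non-injured cord, 1.60 in SCI, 1.56 with syngeneic and 1.60 with allogeneic cells. Plin2 (-0.27, -0.11, -0.35 and -0.09 in the same order) and Spp1 (3.34, 3.13, 2.996 and 3.49) also moved little. Gpnmb went from -2.63 to 2.99 in SCI, Cst7 from -6.02 to -0.77 and Lgals3 from -3.85 to 0.39, so that they rose by more than the markers did. Trem2 (-1.46 to 0.60) and Lpl (-1.36 to 1.06) lay between, Apoe went from 5.76 to 6.60, and Fabp5 went down from 3.02 to 1.60. With macrophage markers added (21 genes), Axl went from 3.52 to 2.93, Plin2 from 1.60 to 1.21 and Spp1 from 5.21 to 4.46, whereas Gpnmb went from -0.76 to 4.32. These differences describe the libraries and carry no test.

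**Figure D2:**
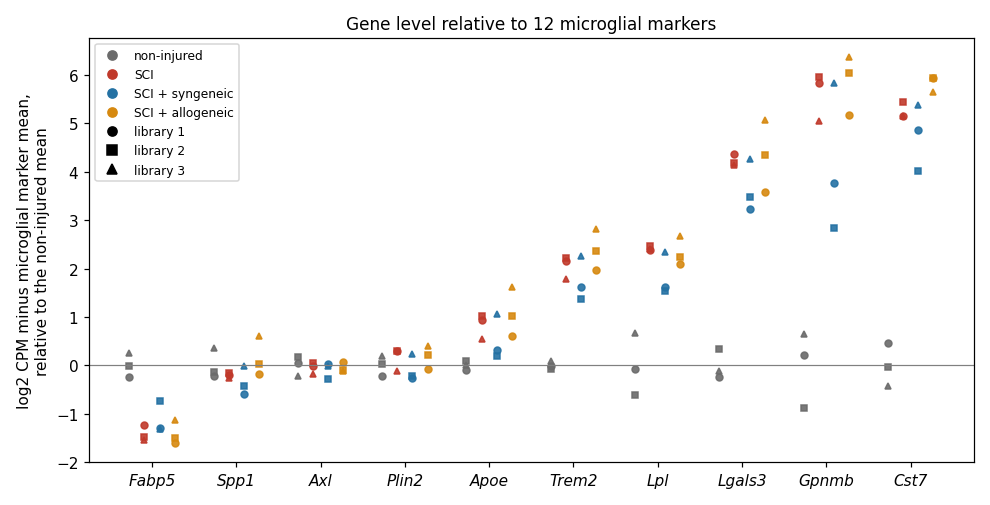
Level of each gene relative to the mean of 12 microglial markers in the same library (log2 CPM difference, set to 0 at the non-injured mean); colours are the groups and symbols libraries 1 to 3. Axl, Plin2 and Spp1 lie near 0 in the injured groups, Fabp5 below it, and Lgals3, Gpnmb and Cst7 well above it.

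The comparison of SCI with syngeneic MSC against SCI alone addresses the effect of genetically matched donor cells. All 10 genes had lower means with syngeneic cells, from Gpnmb (log2 fold change -1.18, SE 0.78, 95% interval -2.89 to 0.53) to Fabp5 (-0.18, SE 0.24), but 0 of 10 were called in edgeR, against 0.0303% of tested genes called lower and 0.00605% higher. At an unadjusted p below 0.05 there was 1 of the 10, Axl (-0.48, SE 0.20, edgeR adjusted p = 0.342), which was lower, against 7.96% of tested genes with syngeneic lower and 2232 genes in both directions. DESeq2 called 0 of the 10 (0.569% of its genes lower). The median of the 10 was -0.65, against 0.00 over all genes. Lpl (82.7 ± 50.8 CPM against 156 ± 14.1; -0.92, SE 0.44, adjusted p = 0.377) was the 1 gene whose libraries did not overlap, against 11.5% of tested genes with syngeneic lower.

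Syngeneic library 3 carried levels close to SCI. For 9 of the 10 genes libraries 1 and 2 were the 2 lowest of the 9 injured libraries, the exception being Fabp5, whereas library 3 ranked from 4 to 6. The 10 genes vary together over the injured libraries, so they are not separate observations. The share of all tested genes with this order is not given here. On a log2 scale from the non-injured mean (0%) to the SCI mean (100%), libraries 1 and 2 stood at 66.4% and 51.4% for Gpnmb, 55.9% and 44.6% for Apoe and 35.3% and 33.4% for Spp1, and library 3 at 102%, 106% and 108%. Summed microglial markers ran the same way, at 1028 and 820 CPM against 1664 CPM. So did summed macrophage markers, at 124 and 80.8 CPM against 221 CPM. Summed markers of fibroblasts and stromal cells did too, at 764 and 860 CPM against 1534 CPM. Summed neuronal markers ran the other way, at 9018 and 10257 CPM against 7377 CPM. With all libraries, median log2 fold changes against SCI were -0.46 for microglial, -1.06 for macrophage, -1.41 for fibroblast and stromal, and 0.42 for neuronal markers. For the 10 genes the median was -0.65. None of these markers was called (0.0303% of tested genes were called lower and 0.00605% higher). The part of these cells in the levels of the 10 genes was not tested. Without library 3, 8 of the 10 genes were called lower (4.76% of genes tested in that fit), with Gpnmb at -3.02 (SE 0.59, edgeR adjusted p = 0.0216), Lpl at -1.58 (SE 0.39, 0.0434) and Trem2 at -1.30 (SE 0.31, 0.0379). Spp1 (-1.03, adjusted p = 0.0977) and Fabp5 (-0.32, adjusted p = 0.578) were not called. Leaving out syngeneic library 1 or 2 gave 0 calls, so the calls rest on leaving out library 3. That library was singled out by the levels of these same 10 genes, and it was the highest syngeneic library for each. Leaving it out therefore lowers the group means, and the calls made without it are not a separate test.

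**Figure D3:**
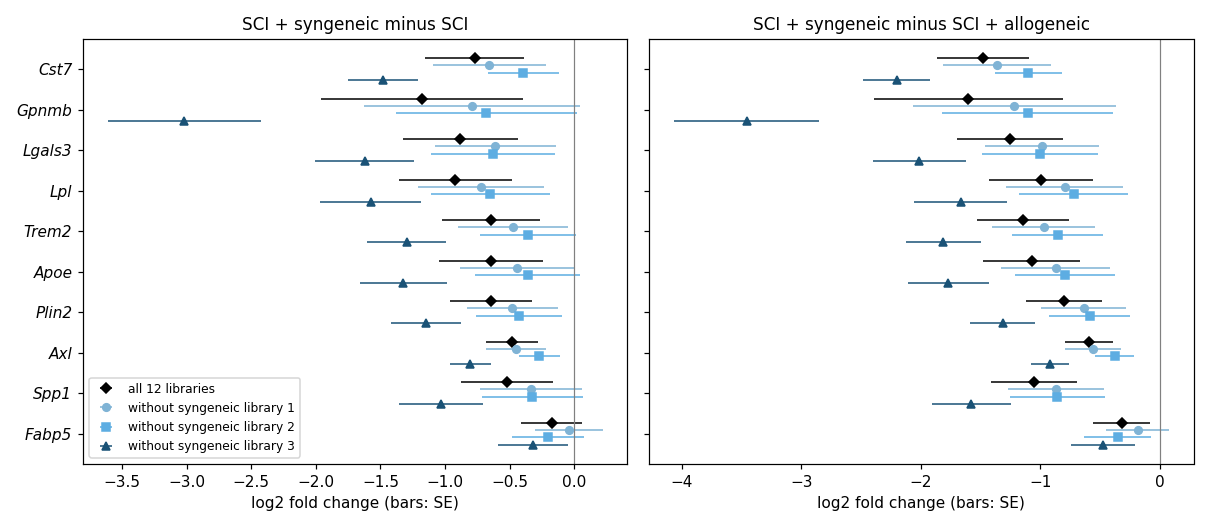
Log2 fold change of each gene (bars, SE) between syngeneic MSC and SCI alone (left) or allogeneic MSC (right), with all 12 libraries and without each syngeneic library in turn. Without library 3 the values move away from 0, to -3.02 and -3.46 for Gpnmb.

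The comparison of SCI with allogeneic MSC against SCI alone addresses the effect of unmatched donor cells. The 10 means were all higher with allogeneic cells and 0 of 10 were called in edgeR (0.169% of tested genes were called higher and 0.0182% lower). At an unadjusted p below 0.05 there were 0 of the 10 and 486 of all genes (2.94%), and DESeq2 called 0 of the 10 (0.218% of its genes higher). Cst7 had the smallest p (72.5 ± 13.5 against 44.4 ± 7.50 CPM; log2 fold change 0.71, SE 0.38, 95% interval -0.12 to 1.53). Its libraries did not overlap, as was so for 4.2% of tested genes with allogeneic higher. The intervals of the others reached from -0.33 to 1.33 for Trem2, from -0.45 to 1.31 for Apoe and from -1.26 to 2.11 for Gpnmb. Allogeneic library 3 held the highest level of 8 of the 10 genes among the 9 injured libraries, the exceptions being Cst7 and Axl, whose highest was allogeneic library 2. Allogeneic library 1 ranked from 6 to 8 for the same 8 genes. As the 10 genes vary together over the injured libraries, these counts are not separate observations, and the share of all tested genes is not given. Without library 3 the values of Lpl (-0.11), Lgals3 (-0.04) and Fabp5 (-0.0012) turned below 0.

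Set against each other, the syngeneic group had lower means than the allogeneic group for all 10 genes. The median log2 fold change was -1.06, against 0.02 over all genes. Cst7 differed by -1.48 (SE 0.38, 95% interval -2.32 to -0.63, edgeR adjusted p = 0.15), Trem2 by -1.15 (SE 0.38, 0.251), Lgals3 by -1.25 (SE 0.45, 0.26) and Gpnmb by -1.60 (SE 0.79, 0.38). In edgeR 0 of 10 were called, against 0.593% of tested genes called lower and 0.0182% higher. At an unadjusted p below 0.05 there were 8 of the 10, all lower, against 10.1% of tested genes, the others being Gpnmb and Fabp5. The libraries of Cst7 and Axl did not overlap (7.03% of tested genes with syngeneic lower). DESeq2 called Cst7 alone (adjusted p = 0.0169; 1.71% of its genes lower), and edgeR without syngeneic library 3 called 9 of the 10 lower (6.73% of genes tested in that fit), Fabp5 being the exception, with Cst7 at -2.20 (SE 0.28, adjusted p = 0.00471). As library 3 was singled out by the levels of these genes, the calls without it are not a separate test. This comparison and those with SCI alone share libraries, so their signs are not independent. Ly6c2, a monocyte marker, was the 1 phagocyte marker called, at -3.70 (SE 0.49, adjusted p = 0.00656), and it has near-identical relatives.

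Against non-injured cord, 7 of the 10 genes were called higher with syngeneic cells (4.92% of tested genes) and 9 with allogeneic cells (16.7%). With syngeneic cells the 7 were led by Cst7 (log2 fold change 6.61, SE 0.61) and Gpnmb (6.03, SE 0.99), while Plin2 (1.22, SE 0.33, edgeR adjusted p = 0.054), Spp1 (0.93, SE 0.36, 0.183) and Fabp5 (0.09, SE 0.24, 0.882) were not called. Plin2 was called by DESeq2 (adjusted p = 0.00478), with library totals as the only scaling (1.28, 0.0385) and without syngeneic library 2 (1.44, 0.0218). Without syngeneic library 3 it moved the other way (0.73, edgeR adjusted p = 0.261), as did Spp1 (0.43, 0.71). In that fit 6 of the 10 genes were called higher, against 2.54% of the genes tested in it. With only the 2 groups in the fit, Apoe, Lpl, Gpnmb and Axl lost their calls at like fold changes (adjusted p = 0.0556 to 0.0859). Apoe (1.93, SE 0.42, adjusted p = 0.0194) also lost its call without syngeneic library 3 (1.26, 0.073), without non-injured library 1 (1.85, 0.0962) and without non-injured library 2 (1.88, 0.0834). With allogeneic cells Cst7 rose by 8.09 (SE 0.61), Gpnmb by 7.63 (SE 1.05), Trem2 by 4.29 (SE 0.44) and Spp1 by 1.98 (SE 0.37). Fabp5 was the exception (0.41, SE 0.24, edgeR adjusted p = 0.242), and it was called without non-injured library 3 (0.72, 0.034), the library highest for it. The 3 sets of values against non-injured cord share those 3 libraries.

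**Figure D4:**
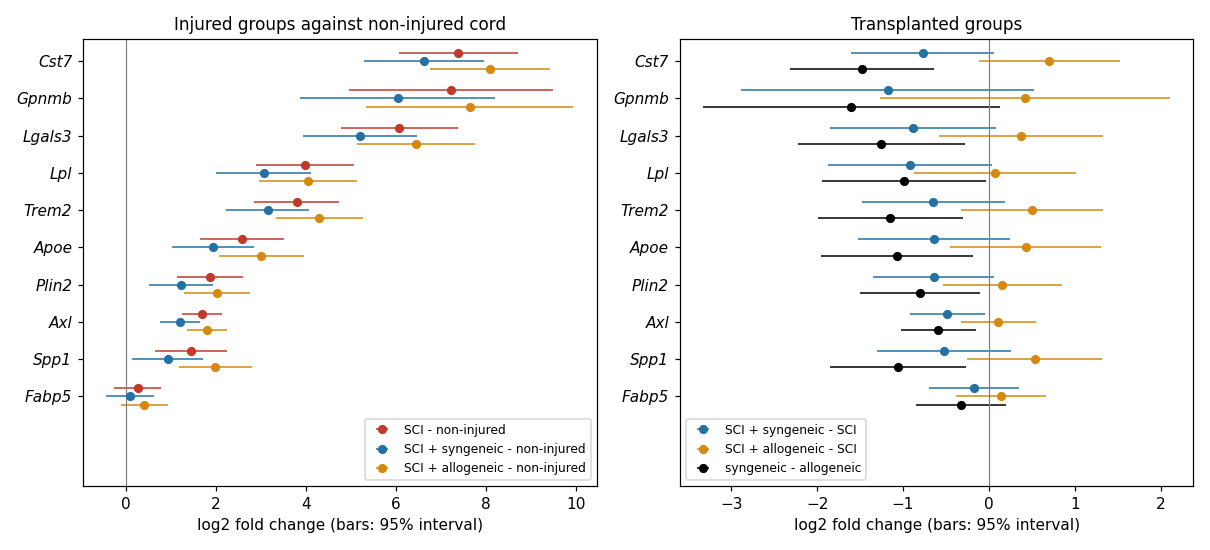
Log2 fold change with 95% interval of each gene in the injured groups against non-injured cord (left) and between the injured groups (right). On the left the Fabp5 intervals of all 3 injured groups cross 0; on the right most intervals with SCI alone cross 0 and those of syngeneic against allogeneic cells lie lowest.

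Genes of the same pathways were taken from lists chosen by function, with earlier results of these data known. Their counts describe the pattern and are not an independent check of it. In SCI 16.6% of all tested genes were called higher and 9.26% lower. Of 8 genes of TREM2 signalling, 8 rose in SCI, among them the adaptor Tyrobp (153 ± 20.7 against 11.9 ± 3.81 CPM; log2 fold change 3.68, SE 0.46), the exchange factor Vav1 (2.95, SE 0.34) and the scaffold Lcp2 (2.66, SE 0.33). Of 18 further genes of disease-associated microglia 17 rose, and the 3 of smallest p were the integrin Itgax (7.02, SE 0.53), the glucan receptor Clec7a (6.45, SE 0.50) and the small surface protein Cd52 (4.01, SE 0.35). The ferritin gene Fth1 was the exception (-0.51, SE 0.33, edgeR adjusted p = 0.294). The median was 2.68 for the signalling list and 3.14 for the disease-associated list.

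Of 13 tested genes of lipoprotein uptake and lipolysis 8 rose in SCI, where 16.6% of all tested genes were called higher. The scavenger receptors Olr1 (5.08, SE 0.56) and Msr1 (5.51, SE 0.77) were among them. Apoc4, an apolipoprotein gene of the Apoe cluster, had 133 counts over the SCI libraries but 0 over the non-injured ones, at least 52.2-fold higher against a floor of 3 counts over the group. Of 11 genes of cholesterol esters and efflux 5 rose and 0 fell. The efflux pump Abca1 went from 39.5 ± 0.517 to 429 ± 78.5 CPM (3.44, SE 0.38), Soat1, which makes cholesterol esters, rose by 1.07 (SE 0.19) and Mylip, a ubiquitin ligase, by 2.07 (SE 0.30).

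Of the 13 tested genes of lipid droplets and triglyceride, to which Plin2 is related, 1 rose and 1 fell, with a median of -0.08. Over all tested genes 16.6% were called higher and 9.26% lower. Acsl1, which activates fatty acids, fell by 0.61 on the log2 scale (SE 0.14), and Plin4, a relative of Plin2, stood at 1.67 (SE 0.47, adjusted p = 0.0243), a call that was lost in 6 alternatives at values of 1.48 to 1.75. The further relatives Plin3 (-0.15, SE 0.26) and Plin5 (1.01, SE 0.55) were not called, and Plin1 held 5 counts over the SCI libraries, none without injury, and was not tested. Of 4 tested relatives of Fabp5, 1 rose and 1 fell: Fabp3 fell (-0.53, SE 0.11, edgeR adjusted p = 0.00622), and Fabp4 was at 3.31 (SE 1.12, adjusted p = 0.0496), called narrowly and lost in 7 alternatives. Fabp4 is also a gene of endothelium and adipocytes, and Lep, Plin1 and Cidec were at or near 0.

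The counts for the partners of the other members stand beside 16.6% of all tested genes called higher in SCI and 9.26% lower. Of 5 TAM receptors and ligands 2 rose, Mertk, a sister receptor of Axl (1.51, SE 0.26), and its ligand Pros1 (1.88, SE 0.26). The third receptor Tyro3 (-0.11, SE 0.13) and the AXL ligand Gas6 (0.19, SE 0.12) were not called. Of 9 osteopontin receptors 5 rose, including Cd44 (2.19, SE 0.38), Itga5 (2.82, SE 0.41) and Itgb5 (2.01, SE 0.29). Of 6 galectin genes 2 rose, Lgals3bp, which encodes a galectin-binding protein (3.18, SE 0.35), and Lgals9 (1.62, SE 0.22), while Lgals1 stood at 0.37 (SE 0.39) and was not called. Of 6 genes of cystatins and their target cathepsins 4 rose and 1 fell, with Ctss, cathepsin S (826 ± 119.7 against 76.6 ± 17.7 CPM; 3.43, SE 0.36), and Ctsc, which cystatin F inhibits (2.83, SE 0.31), among them. Of 4 lysosomal transcription factors 2 rose, Tfe3 (0.57, SE 0.10) and Tfec, which had 39 counts over the SCI libraries but 0 over the non-injured ones, at least 15.3-fold higher against a floor of 3 counts; Mitf (0.04, SE 0.19) and Tfeb (-0.06, SE 0.19) were not called. The Tfec call was lost without non-injured library 1 or SCI library 2.

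Between the injured groups, 0 of the 97 tested genes of these 11 lists were called in edgeR. At an unadjusted p below 0.05 there were 26 for syngeneic cells against SCI (13.5% of all tested genes passed). There were 6 for allogeneic cells against SCI (2.94%) and 45 for syngeneic against allogeneic cells (14.4%). DESeq2 called 0, 0 and 5 in the same order. In the last of these it called 1.71% of its genes lower and 0.0996% higher. Against SCI alone, syngeneic cells had medians of -0.70 for TREM2 signalling, -0.64 for disease-associated microglia, -0.51 for lipoprotein uptake and 0.02 for lipid droplets. The smallest p of the signalling list was that of the kinase Syk (12.1 ± 7.42 against 25.3 ± 3.57 CPM; -1.08, SE 0.35, edgeR adjusted p = 0.312). Without syngeneic library 3, 6 of 8 signalling genes and 10 of 18 disease-associated genes were called lower, with Syk at -1.73 and Clec7a at -1.60. In that fit 4.76% of the genes tested were called lower, and the library had been singled out by the levels of the 10 genes. In the comparison of syngeneic with allogeneic cells the integrin Itga4, an osteopontin receptor (-1.21, SE 0.26, edgeR adjusted p = 0.081), Cd52 (-1.29, SE 0.29, 0.101) and Lcp2 (-1.27, SE 0.30, 0.112) came nearest to a call, and DESeq2 called all 3. With allogeneic cells against SCI alone the median was 0.24 for TREM2 signalling and 0.28 for disease-associated microglia, with the adaptor Hcst at 1.20 (SE 0.50) and Cd52 at 0.65 (SE 0.29) uncalled.

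Across the 12 libraries, the gene most like the standardised mean of the 10 was Fcer1g, the signalling chain of antibody receptors (Pearson r = 0.9975 over log2 CPM, among 13738 genes compared), followed by Unc93b1, Snx20, Fermt3 and Pycard (0.9955 to 0.9964). Taken singly, the nearest gene was Ctss for Trem2 (0.9987), Ms4a7 for Gpnmb (0.9978), Clec7a for Cst7 (0.9956), Wdfy4 for Axl (0.9964), Gna15 for Lpl (0.9962) and Cyp4v3 for Apoe (0.9966). It was Slc44a2 for Plin2 (0.996), Lyz2, lysozyme of myeloid cells, for Lgals3 (0.992), Snx5 for Spp1 (0.9904) and Prdx1 for Fabp5 (0.9828). These libraries share the large difference between injured and non-injured cord. Within the 9 injured libraries the 10 genes were correlated pairwise from 0.4907 (Cst7 with Fabp5) to 0.9956 (Trem2 with Apoe), and Fcer1g kept 0.9944 with their mean. Syngeneic libraries 1 and 2 lie low and allogeneic libraries 2 and 3 high in most pairs, so the libraries are few and grouped.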

How the data were processed

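Spinal cord RNA was purified on columns with DNase and made into stranded poly(A) libraries, per the labels' protocols. The authors deposited raw counts per Ensembl gene. Per the submitters' processing notes, featureCounts 1.5.1, STAR 2.5.1 and the build GRCm38 were among what was used, with Trim Galore 0.4.1 and FastQC 0.11.5. The strand setting of the counting is not given in the sources used. Groups came from the labels.

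Genes were filtered with filterByExpr (minimum count 10, minimum total 15) and scaled by TMM. The test was edgeR 4.0.16 (R 4.3.3), robust quasi-likelihood, on all 12 libraries (a mean for each group, 8 residual degrees of freedom), with Benjamini-Hochberg adjustment over 16527 genes and a threshold of 0.05. It was tested on simulated data. CPM used TMM-scaled totals, log2 CPM a prior count of 2, and RPKM the summed exon length of GENCODE M21. Alternatives were DESeq2 1.42.0, other scalings, no filter, fits of 2 groups and each library left out.

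The members and lists were chosen with earlier results of these data known. Named genes are the 10, up to 3 called genes of smallest p per list (otherwise the gene of smallest p), and the genes most alike; not every gene the rule picked is printed, and list genes named beyond it (Apoc4, Plin1, Plin3, Plin5, Fth1, Tyro3, Gas6, Lgals1, Mitf, Tfeb and the markers) were chosen after their values were seen. A gene of the lipoprotein list is not reported here.

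Spp1 shares exons with Gm42793 on its strand (92 counts in all, against 121312). By blastn (at least 95% identity over 200 bases), Fabp5 has 2 near-identical copies (161 counts, 0.338% of its own) and Plin2 has 1 (5 counts), so reads could be split between them.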

Additional observations from a re-analysis of the deposited data

How the results depend on the processing

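No paired analysis was possible because the samples' titles are single numbers, each used once, so no replicate number is shared between groups.

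Changes of the 10 genes outside the text: Fabp5 with syngeneic cells against non-injured cord turned to -0.07 without non-injured library 1, -0.03 without non-injured library 2 and -0.04 without syngeneic library 3 (-0.07 to 0.37 over all libraries left out in turn). Among list genes, Tfeb with allogeneic cells against SCI turned to -0.02 without SCI library 1 and -0.0045 without allogeneic library 2 (-0.02 to 0.17). With allogeneic library 3 left out, Lpl, Lgals3 and Fabp5 against SCI were at -0.11 (highest 0.28 over the libraries left out in turn), -0.04 (0.73) and -0.0012 (0.33). The cause was not tested.

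With 1 library left out, the number of the 10 genes called was 8 to 9 in SCI against non-injured cord, 0 to 8 for syngeneic cells against SCI, 0 to 0 for allogeneic cells against SCI, 0 to 9 for syngeneic against allogeneic cells, and 6 to 8 (syngeneic) and 9 to 10 (allogeneic) against non-injured cord. The number of all genes called was, in the same order, 2336 to 3974 (4266 with all libraries), 0 to 866 (6), 0 to 29 (31), 24 to 1178 (101), 358 to 1752 (883) and 2613 to 4669 (4112).

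Without a filter on low counts 18 genes were called for syngeneic cells against SCI and 50 for allogeneic cells. With only the 2 groups compared the calls were 3 and 17, then 21 for syngeneic against allogeneic cells, and 172 (syngeneic) and 2738 (allogeneic) against non-injured cord, but 4544 rather than 4266 for SCI against non-injured cord. Of the 10 genes, 3 rather than 7 were then called with syngeneic cells against non-injured cord (Trem2, Lgals3 and Cst7). DESeq2 called 118, 68 and 346 genes in the 3 comparisons between injured groups, with 1 of the 10 (Cst7) in the last, and 1384 for syngeneic cells against non-injured cord. The causes were not tested. Depth limits Cst7 most in counting error, with 16 counts over the 3 non-injured libraries.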
